A study of Mus musculus with 28 samples.

Results

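The 10 genes described here encode proteins of the microfibrils and elastic fibres of the extracellular matrix, together with the latent TGF-beta binding proteins that dock on them. They were chosen by name, as the rows of the gene table for Ltbp1, Ltbp2, Ltbp3, Ltbp4, Fbn1, Mfap4, Mfap5, Eln, Fbln1 and Fbln2, and all 10 were found among the 39152 gene symbols of the table. Fibrillin microfibrils form the scaffold on which tropoelastin is laid down and crosslinked, and fibulins and microfibril-associated proteins take part in that assembly. TGF-beta is secreted in a latent complex, and Ltbp1, Ltbp3 and Ltbp4 tie that complex to the matrix, whereas Ltbp2 binds fibrillin without carrying the growth factor. In the heart these proteins come mainly from fibroblasts and the cells of vessel walls and valves.

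RNA sequencing was performed on 28 libraries of left ventricle (LV) and right ventricle (RV) from 16 C57BL6 mice, 12 of which gave both ventricles. The study asked how TN-401, an AAV9 vector that carries human PKP2, acts at each dose in a mouse model of arrhythmogenic right ventricular cardiomyopathy, a disease in which loss of the desmosome protein plakophilin 2 is accompanied by arrhythmia, ventricular dilatation and fibrosis. WT mice were Pkp2 fl/fl littermates without Cre that received the HBSS vehicle (LV n = 5, RV n = 3). Pkp2-cKO mice carried αMyHC-Cre-ER(T2) on the same Pkp2 fl/fl background, were induced with tamoxifen and received HBSS (cKO, n = 4 in each ventricle). The treated groups were cKO mice that received 1 retro-orbital injection of TN-401, 1 week before tamoxifen, at 3E13 vg/kg (LV n = 4, RV n = 2) or 6E13 vg/kg (LV n = 3, RV n = 3). All groups shared the floxed Pkp2 alleles. The αMyHC promoter drives Cre in cardiomyocytes, so the fibroblasts and vascular cells of the cKO hearts kept Pkp2. The study gives a single collection time after induction for the mice of this experiment. In another experiment of the study, the vehicle-treated cKO mice died before that time. Any difference between groups in collection time or in survival to collection cannot be told apart from the group, and was not tested. The ages of the single mice were not used here.

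The libraries held 19364764 to 39381176 counts. Mouse Pkp2 separated WT LV (103 to 121 CPM, counts scaled to the library size) from cKO LV (29.2 to 55.3 CPM), and the human transgene was at 0 in every WT and cKO library and at 167 to 535 CPM in treated LV. Mitochondrial genes took 15.0% to 26.7% of the counts in cKO libraries and 33.5% to 39.6% in WT libraries. Of 8 cardiomyocyte markers, 6 fell in cKO LV and 7 in cKO RV, and their summed level was 33653 to 79978 CPM in cKO libraries against 94915 to 108770 CPM in WT libraries. Of 8 fibroblast markers, 5 rose in cKO LV and 8 in cKO RV, and their sum was 618 to 2338 CPM in cKO LV against 835 to 1053 CPM in WT LV, and 2449 to 3832 CPM in cKO RV against 1054 to 1372 CPM in WT RV. In such bulk tissue, fewer cells of a type and less RNA per cell cannot be told apart, and the part of cell composition in the results below was not tested. All 7 macrophage markers rose in cKO in both ventricles, whereas 1 rose and 1 fell of 9 smooth muscle and pericyte markers in LV (5 and 1 in RV), and 1 rose and 1 fell of 6 endothelial markers in LV (0 and 1 in RV). Epicardial markers rose for 2 of the 2 tested in LV and 1 of 5 in RV. All 4 atrial markers rose in cKO RV, where their sum ran from 2.05 to 657 CPM against 1.09 to 1.92 CPM in WT RV (1 of 1 tested rose in LV). Myl7, an atrial myosin light chain, stood at 87.9 and 47.3 CPM in the cKO RV libraries of animals 180 and 257 and at 2.19 CPM or less in the other two, and the counts of the 10 genes and of the pathway lists in RV that rest on the cKO group were therefore also computed without those 2 libraries.

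Promoter sequences from RefSeq (GRCm38.p6, whereas the gene table was built on GRCm39) were available for 7 of the 10 genes in 11 entries, and Eln, Mfap4 and Mfap5 had none. The 250 bases before the start are printed for Ltbp2, Fbn1 and Fbln2, which rose in both ventricles of cKO mice, and for Ltbp1, which rose in neither on counts, so that the windows can be read side by side. Capitals mark each match to a SMAD box (CAGAC) or a GC box (GGGCGG) on either strand. The windows are chr12:84876492-84876741 (minus strand) for Ltbp2, chr2:125506439-125506688 (minus) for Fbn1, chr6:91212514-91212763 (plus) for Fbln2 and chr17:75005279-75005528 (plus) for the upstream of 2 Ltbp1 starts.
Ltbp2: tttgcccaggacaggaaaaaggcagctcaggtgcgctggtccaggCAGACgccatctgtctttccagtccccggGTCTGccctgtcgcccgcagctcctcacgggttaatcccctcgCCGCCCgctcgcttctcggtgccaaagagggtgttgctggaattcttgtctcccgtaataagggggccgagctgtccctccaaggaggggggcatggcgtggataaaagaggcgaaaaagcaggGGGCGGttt
Fbn1: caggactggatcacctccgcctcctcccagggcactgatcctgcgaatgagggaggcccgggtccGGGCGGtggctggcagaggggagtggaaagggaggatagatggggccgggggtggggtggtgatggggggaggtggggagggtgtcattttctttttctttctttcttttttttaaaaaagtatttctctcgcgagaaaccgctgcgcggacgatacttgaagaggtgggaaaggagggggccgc
Fbln2: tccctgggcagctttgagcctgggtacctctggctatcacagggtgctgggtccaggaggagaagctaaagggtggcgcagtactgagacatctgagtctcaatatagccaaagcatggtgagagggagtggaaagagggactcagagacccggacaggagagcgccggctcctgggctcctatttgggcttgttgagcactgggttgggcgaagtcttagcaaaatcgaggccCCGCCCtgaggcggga
Ltbp1: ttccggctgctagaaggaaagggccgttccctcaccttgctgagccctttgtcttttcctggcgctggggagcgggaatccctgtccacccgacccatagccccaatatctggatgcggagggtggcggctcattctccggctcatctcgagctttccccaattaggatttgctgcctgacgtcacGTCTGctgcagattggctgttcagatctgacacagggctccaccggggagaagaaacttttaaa
The Ltbp2 window held 2 SMAD boxes, at 205 to 201 and 176 to 172 bases before the start, and 2 GC boxes, at 133 to 128 and 9 to 4 bases. Fbn1 and Fbln2 each held 1 GC box and no SMAD box, and this Ltbp1 window held 1 SMAD box and no GC box. The window of the other Ltbp1 start (chr17:75178531-75178780, plus), not printed, held 2 SMAD boxes, as many as Ltbp2, and no GC box. Of all 32851 promoter windows of the same length, 42.2% held a SMAD box and 32.7% a GC box, so such matches were common. A TATA box (TATAAA, in 12.4% of all windows), an AP-1 site (TGANTCA, 6.75%) and a TEAD site (CATTCC, 12.6%) were found in none of the 11 entries. GC content was 61.6% for Ltbp2, 59.2% for Fbn1, 58.8% for Fbln2 and 56.8% for Ltbp1, against a median of 52.4% over all windows. These matches describe letters in the windows and were not tested for function.

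Loss of Pkp2 in cardiomyocytes was accompanied by higher RNA of nearly the whole set. Calls were made where the adjusted p was below 0.05 (edgeR quasi-likelihood test, Benjamini-Hochberg adjustment over all genes tested in that ventricle). In LV 8 of the 10 genes rose in cKO, where 19.7% of all genes tested rose, and Ltbp1 fell, where 16.1% of all genes fell. Ltbp4 did not pass in LV. In RV 9 of 10 rose, against 19.8% of all genes, and Ltbp1 did not pass. Every cKO library lay above every WT library for 7 of the genes in LV (14.2% of all genes) and for 9 in RV (21.2% of all genes). The median log2 fold change of the 10 was 2.33 in LV and 3.04 in RV, against 0.05 and 0.06 over all genes tested. The 9 RV genes were also 9 without the cKO RV libraries of animals 180 and 257.

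**Figure D1:**
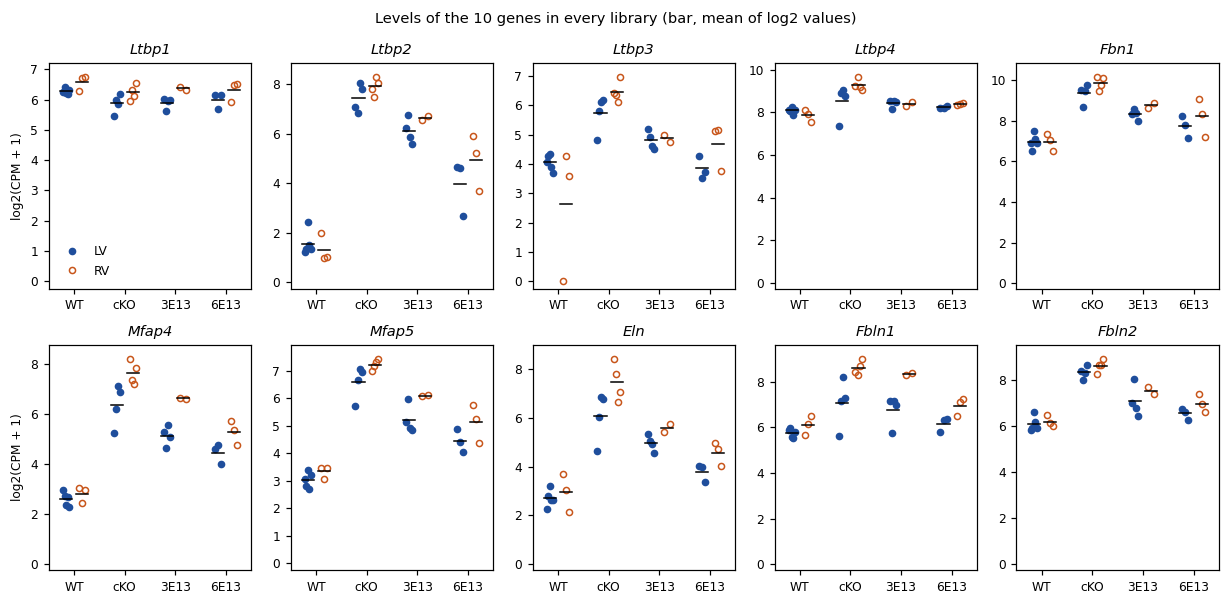
Level of each gene in every library, as log2(CPM + 1), by group, with LV as filled and RV as open points and a bar at the mean of the log2 values. Ltbp2 runs from 0.95 to 4.38 CPM in WT libraries and from 113 to 310 CPM in cKO libraries, whereas the Ltbp1 points of the 4 groups lie close together.

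Ltbp2 (chr12:84829986-84923306, GRCm39) showed the largest difference of the 10 genes. In LV it was at 1.32, 1.52, 1.56, 1.85 and 4.38 CPM in WT and at 113, 136, 227 and 268 CPM in cKO, a mean of 2.13 ± 1.27 against 186 ± 73.5 CPM (SD, n = 5 and 4). In RV it was at 0.95, 1.03 and 2.95 CPM in WT and at 181, 224, 267 and 310 CPM in cKO. The groups did not overlap in either ventricle. WT libraries carried few Ltbp2 counts, 28 to 159 in LV and 21 to 60 in RV, so the WT level is the less precise side of each ratio. The log2 fold change was 6.40 (SE 0.51, 84.5-fold, adjusted p = 1.26e-06, edgeR) in LV and 7.24 (SE 0.63, 152-fold, adjusted p = 1.48e-05, edgeR) in RV. On the log2(TPM + 1) scale, which compresses low levels, the differences were 4.52 and 5.13.

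Ltbp1 (chr17:75312519-75699507), whose protein holds latent TGF-beta in the matrix, did not share this rise. Its LV levels were 71.9, 73.1, 75.3, 78.9 and 84.3 CPM in WT and 43.3, 57.4, 63.0 and 71.7 CPM in cKO. The cKO libraries all lay below the WT libraries, by a narrow margin at the nearest pair. The log2 fold change in LV was -0.38 (SE 0.14, adjusted p = 0.042, edgeR), it was lost on leaving out any 1 of 7 of the 9 libraries (cKO 177 and 257 and all 5 of WT, adjusted p up to 0.102), and its sign turned on the deposited TPM scale (0.13, adjusted p = 0.462, limma). In RV, Ltbp1 was at 77.2, 104 and 106 CPM in WT and at 61.3, 69.1, 78.1 and 93.6 CPM in cKO, with overlap. There the change was -0.34 (SE 0.18, adjusted p = 0.162, edgeR) on counts and 0.43 (adjusted p = 0.0336, limma) on the deposited TPM scale. That scale moved the median of all genes by 0.37 in LV and 0.54 in RV, so the Ltbp1 value on it was below the median in both ventricles. It also raised the share of calls that were higher in cKO from 55.1% to 92.5% in LV and from 53.0% to 94.6% in RV, and after TPM were renormalized over nuclear protein-coding genes the shares were 66.9% and 71.4% (median shifts of 0.16 and 0.27).

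Ltbp3 (chr19:5790932-5808669), which also binds the latent growth factor, was at 11.9 to 19.2 CPM in WT LV and 27.2 to 71.3 CPM in cKO LV, with no overlap. It rose by 1.81 on the log2 scale (SE 0.25, adjusted p = 1.07e-04, edgeR). In RV it was at 0 to 18.2 CPM in WT and at 67.7 to 123 CPM in cKO. The RV library of WT animal 636 held 0 Ltbp3 counts, which allows up to 3, although the LV library of the same mouse held 698, the highest of the WT group. The RV log2 fold change was 3.19 (SE 0.86, adjusted p = 0.0123, edgeR) with that library and 2.61 (adjusted p = 0.00127) without it.

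Ltbp4 (chr7:27004086-27037117), a carrier of latent TGF-beta that is needed for elastic fibre assembly, was the most abundant of the 4 binding proteins. In LV it was at 237 to 306 CPM in WT and at 165, 442, 485 and 525 CPM in cKO. Animal 177 lay below all WT libraries and the other 3 cKO mice lay above them. The LV change of 0.56 (SE 0.23, adjusted p = 0.0691, edgeR) did not pass, and without animal 177 it was 0.81 (adjusted p = 3.69e-05). In RV Ltbp4 was at 186 to 280 CPM in WT and at 528, 586, 595 and 795.7 CPM in cKO, with no overlap, a rise of 1.41 (SE 0.17, adjusted p = 1.11e-04, edgeR).

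The make-up of the family was compared as shares of the summed TPM (a level corrected for transcript length and library size) of Ltbp1 to Ltbp4. Their sum was 59.8 ± 7.15 TPM in WT LV and 151 ± 43.5 TPM in cKO LV, and 49.0 ± 10.3 and 242 ± 29.7 TPM in RV. The Ltbp2 share was 0.450% ± 0.261 in WT LV (n = 5) and 20.4% ± 7.35 in cKO LV (n = 4). The difference of 19.98 percentage points had p = 0.0159 in the two-sided exact permutation test, the smallest p that 5 against 4 libraries allow. In RV the share was 0.433% ± 0.232 (n = 3) and 17.5% ± 4.45 (n = 4), a difference of 17.1 points with an exact permutation p of 0.0571, which is the smallest possible there, so RV could not reach 0.05. In LV the Ltbp1 share was 19.3% ± 1.05 in WT and 8.89% ± 2.42 in cKO, and the Ltbp4 share was 76.4% ± 1.33 and 63.0% ± 9.25. In treated LV the Ltbp2 share was 10.3% ± 4.81 at 3E13 (n = 4) and 3.31% ± 2.19 at 6E13 (n = 3), still above the 0.247% to 0.897% of WT except for 1 library at 6E13 (0.824%). In treated RV it was 12.1% ± 0.579 (n = 2) and 5.80% ± 4.51 (n = 3).

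**Figure D2:**
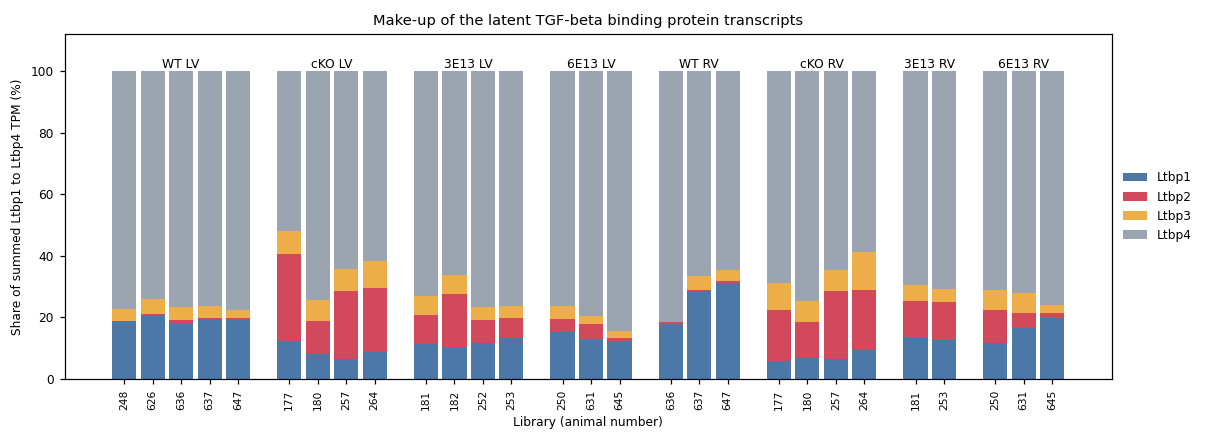
Share (%) of Ltbp1, Ltbp2, Ltbp3 and Ltbp4 in their summed TPM, with 1 bar for each library, labelled by animal number and ordered by group. Ltbp2 takes 0.179% to 0.897% in WT libraries, 10.7% to 28.5% in cKO libraries and smaller shares in 6E13 libraries.

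Fbn1 (chr2:125142514-125349913) encodes fibrillin-1, the backbone of the microfibril. It was at 89.5 to 178 CPM in WT LV and at 409, 696, 737 and 864 CPM in cKO LV, with no overlap, and rose by 2.40 (SE 0.25, 5.28-fold, adjusted p = 9.26e-06, edgeR). RV levels were 90.6 to 163 CPM in WT and 701 to 1123 CPM in cKO, again apart, with a rise of 2.88 (SE 0.39, adjusted p = 2.09e-04, edgeR). Fbn1 overlaps the opposite-strand lncRNA Gm9913, and Ltbp2 overlaps D030025P21Rik in the same way. The sources used here do not say whether reads were assigned by strand. Both microfibril-associated genes had larger fold changes than Fbn1, a difference between genes that was not tested.

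Mfap4 (chr11:61376212-61379727), a glycoprotein that binds elastin and fibrillin, was at 3.89, 4.10, 5.399, 5.53 and 6.71 CPM in WT LV and at 36.2, 71.0, 116 and 137 CPM in cKO LV. In RV it was at 4.39, 6.63 and 7.18 CPM in WT and at 144, 160, 223 and 290 CPM in cKO. No library overlapped in either ventricle, and the rise was 4.14 (SE 0.34, 17.6-fold, adjusted p = 1.77e-06, edgeR) in LV and 5.07 (SE 0.34, 33.6-fold, adjusted p = 5.25e-06, edgeR) in RV. Mfap5 (chr6:122470878-122508875), which binds fibrillin and is part of the microfibril, was at 5.53 to 9.55 CPM in WT LV and 51.8 to 133 CPM in cKO LV. Its RV levels were 7.47 to 10.2 CPM in WT and 127 to 172 CPM in cKO, and the rise was 3.79 (SE 0.31, adjusted p = 1.59e-06) in LV and 4.02 (SE 0.30, adjusted p = 8.73e-06) in RV (edgeR). Mapk7 overlaps Mfap4, and Rimklb overlaps Mfap5, each on the opposite strand.

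Eln (chr5:134731445-134776322) encodes tropoelastin, the monomer of the elastic core. In LV it was at 3.78, 5.15, 5.22, 5.94 and 8.15 CPM in WT and at 24.1, 65.2, 108 and 113 CPM in cKO. In RV it was at 3.34, 7.10 and 11.9 CPM in WT and at 99.8, 131, 221 and 340 CPM in cKO. The groups stood apart in both ventricles, with the cKO libraries spread widely. Animal 177 had the lowest Eln of the cKO LV libraries and the highest of the cKO RV libraries. The rise was 3.77 (SE 0.37, 13.6-fold, adjusted p = 5.59e-06, edgeR) in LV and 4.74 (SE 0.54, 26.8-fold, adjusted p = 7.22e-05, edgeR) in RV.

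Of the fibulins, Fbln2 separated the groups more sharply in LV. Fbln2 (chr6:91189437-91249522), which binds fibrillin and basement membrane proteins, was at 54.9 to 97.8 CPM in WT LV and at 255 to 394 CPM in cKO LV. Its rise was 2.25 (SE 0.27, adjusted p = 3.09e-05, edgeR) in LV, and 2.44 (SE 0.22, adjusted p = 1.96e-05) in RV, where WT lay at 63.0 to 86.8 CPM and cKO at 300.3 to 477.5 CPM. Fbln1 (chr15:85090150-85170737), found in elastic fibres and vessel walls, was at 44.9, 46.8, 55.6, 58.3 and 62.9 CPM in WT LV and at 48.95, 142, 156 and 292 CPM in cKO LV. The library of animal 177 lay inside the WT range while the other 3 were above it. The rise in LV was 1.57 (SE 0.37, adjusted p = 0.00407, edgeR). In RV Fbln1 was at 49.4, 70.4 and 90.35 CPM in WT and at 316, 342, 411 and 511 CPM in cKO, with no overlap, and rose by 2.50 (SE 0.26, adjusted p = 3.81e-05, edgeR).

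Per length, the order of the levels in LV differed between the groups. In WT LV, Ltbp4 was highest at 45.7 ± 5.89 TPM (n = 5) and clear of all others. Fbln1 (18.4 ± 2.75 TPM), Fbln2 (13.6 ± 3.56), Fbn1 (11.8 ± 3.26) and Ltbp1 (11.5 ± 0.986) followed, each overlapping its neighbours, then Mfap5 at 6.61 ± 1.89 TPM, clear of Ltbp1. Mfap4 (2.90 ± 0.741 TPM), Ltbp3 (2.34 ± 0.487) and Eln (1.33 ± 0.405) came next, again overlapping in turn, and Ltbp2 was lowest at 0.279 ± 0.196 TPM, below every Eln value. In cKO LV, Mfap5 had the highest mean at 129 ± 44.1 TPM (n = 4), followed by Ltbp4 (96.5 ± 33.7), Fbln2 (94.9 ± 20.8), Fbn1 (84.2 ± 29.5), Fbln1 (73.1 ± 45.7) and Mfap4 (69.7 ± 34.0), then Ltbp2 (30.05 ± 11.9), Eln (25.4 ± 13.1), Ltbp1 (12.7 ± 1.079) and Ltbp3 (11.6 ± 3.55). Each of these overlapped its neighbours in that order. The deposited scaling described above enters all of these levels.

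Most of the set was lower in treated than in untreated cKO hearts. At 6E13 vg/kg, 7 of the 10 genes fell in LV against cKO (8.16% of all genes fell). Of all calls, 51.5% were higher at 6E13, against 6.4% on the deposited TPM and 36.5% on renormalized TPM. All 6E13 libraries lay below all cKO libraries for those 7, but the share of all genes separated in this way was not computed. The median log2 fold change of the 10 was -1.91 (all genes -0.04). Ltbp2 was at 5.36, 23.3 and 24.4 CPM and fell by 3.38 on the log2 scale (SE 0.54, adjusted p = 0.00139, edgeR), and Eln was at 9.40, 14.8 and 15.2 CPM and fell by 2.56 (SE 0.42, adjusted p = 0.00165, edgeR). Ltbp3 fell by 2.01, Mfap5 by 2.26, Mfap4 by 2.07, Fbln2 by 1.81 and Fbn1 by 1.61, with adjusted p from 0.00110 to 0.00276 (edgeR). Ltbp4 was at 290 to 317 CPM and Fbln1 at 54.9 to 81.2 CPM, neither past the test (adjusted p = 0.292 and 0.0817), and Ltbp1 was at 50.9 to 70.0 CPM (change 0.11, adjusted p = 0.665). A fit to only the 6E13 and cKO libraries called 4 of these genes (Ltbp2, Ltbp3, Mfap5 and Fbln2) in place of 7. Of the markers, 4 of 8 for cardiomyocytes rose, and 2 of 8 for fibroblasts and 6 of 7 for macrophages fell in this comparison. Smooth muscle and pericyte markers rose for 1 and fell for 1 of 9, endothelial markers rose for 1 and fell for 1 of 6, and the part of all these markers was not tested. Without cKO animal 177, Ltbp4 (-0.68, adjusted p = 0.00149) and Fbln1 (-1.44, adjusted p = 0.00808) also passed.

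In RV at 6E13, 8 genes fell against cKO (10.9% of all genes fell), all but Ltbp1 and Ltbp3. For 9 the libraries did not overlap, and the share of all genes without overlap was not computed. Here 6 of 8 cardiomyocyte markers rose, and 7 of 8 fibroblast, 6 of 7 macrophage, 3 of 5 tested epicardial and 3 of 4 atrial markers fell. Of 9 smooth muscle and pericyte markers 1 rose and 3 fell, and the part of these markers was not tested. The count was also 8 without the cKO RV libraries of animals 180 and 257. Eln fell by 3.08 (SE 0.49, adjusted p = 0.00152, edgeR) to 15.1, 25.3 and 29.9 CPM. Ltbp2 fell by 2.77 (SE 0.48, adjusted p = 0.00235, edgeR) to 11.8, 36.4 and 59.6 CPM. Mfap4 was at 26.2, 39.25 and 50.95 CPM, a decrease of 5.25-fold (log2 -2.39, SE 0.29, adjusted p = 3.76e-04, edgeR). Fbln1 fell by 1.66 (SE 0.25, adjusted p = 0.00108, edgeR) to 89.2, 136 and 150 CPM, and Ltbp4 by 0.91 (SE 0.17, adjusted p = 0.00344, edgeR) to 321 to 345 CPM. Fbn1 fell by 1.49 (SE 0.37, adjusted p = 0.0140, edgeR), a call that was lost without the 6E13 library of animal 631 (adjusted p = 0.055). Ltbp3 was at 12.4, 33.4 and 35.0 CPM, below all cKO libraries, with a change of -1.72 (SE 0.79, adjusted p = 0.147, edgeR), and passed when only these 2 groups were fitted (adjusted p = 0.0149).

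At 3E13 vg/kg, 6 genes fell against cKO in LV (6.25% of all genes fell): Ltbp3, Fbn1, Mfap4, Mfap5, Eln and Fbln2, by 1.02 to 1.42 on the log2 scale. Ltbp2 was at 46.6, 57.3, 74.3 and 107.4 CPM, below all cKO libraries, but its change of -1.38 (SE 0.44, adjusted p = 0.0543, edgeR) did not pass, although it did without cKO 177 or 180 or 3E13 182. A fit to only these 2 groups called 0 of the 10 and 49 genes in place of 1932. The 6 calls became 1 (Mfap5) without 3E13 animal 253 and 3 (Fbn1, Mfap4 and Mfap5) without 3E13 animal 252. Ltbp3 and Eln were also lost without cKO 257 or 264 and Fbln2 without 3E13 181, and Ltbp4 passed without cKO 177. In RV, 4 genes fell (3.83% of all genes fell): Ltbp4 by 0.90, Mfap5 by 1.15, Eln by 2.07 and Fbln2 by 1.10. The 3E13 group had 2 RV libraries, and the 4 calls became 0 without either of them, 2 without cKO animal 264 (Ltbp4 and Fbln2) and 1 in a fit of only the 2 groups (Mfap5). Eln was also lost without cKO 177 or 180 and Mfap5 without cKO 257, and Mfap4 passed without 180 or 257. Without the cKO RV libraries of both animals 180 and 257 the count was 4, with Mfap4 in place of Mfap5. The median log2 change of the 10 genes was -1.12 in each ventricle at this dose. In LV, 5 of 7 macrophage, 3 of 9 smooth muscle and pericyte and 1 of 8 fibroblast markers fell and 3 of 8 cardiomyocyte markers rose. In RV, 2 of 7 macrophage, 1 of 8 fibroblast and 2 of 4 atrial markers fell, 3 of 8 cardiomyocyte markers rose, and 1 rose and 2 fell of 9 smooth muscle and pericyte markers. The part of these markers was not tested.

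Part of the set was higher in treated hearts than in WT. At 3E13, 6 genes were higher than WT in LV (1.97% of all genes were higher), namely Ltbp2, Fbn1, Mfap4, Mfap5, Eln and Fbln2, and these and Fbln1 were higher in RV (5.8% of all genes). The other genes of the set did not pass. Macrophage markers were higher for 3 of 7 in LV and 7 of 7 in RV (median log2 fold change 1.06 and 1.70), and fibroblast markers for 1 of 8 in LV and 5 of 8 in RV. In LV 1 of 9 smooth muscle and pericyte markers was lower, and the part of these markers was not tested. Mfap4, at 23.7 to 45.2 CPM in 3E13 LV, was 6.81-fold above WT (adjusted p = 5.06e-04, edgeR), and Ltbp2 was 32.5-fold above WT (adjusted p = 1.15e-04). Fbln2 was called in LV with an adjusted p of 0.0426, which was lost on leaving out any of 7 libraries (3E13 181, 182 and 252, and WT 248, 626, 637 and 647; adjusted p 0.051 to 0.117). In RV the calls for Fbn1, Eln and Fbln2 were lost without 1 library (Fbn1 without 3E13 181 or 253 or WT 637 or 647, Eln without 3E13 253 or WT 637, Fbln2 without 3E13 181). At 6E13, Ltbp2 and Mfap4 were higher than WT in LV, where 0.0792% of all genes were higher, and Ltbp2, Mfap4 and Mfap5 in RV, where 0.849% were. None of the cell type markers was called in that comparison in LV, and 3 of 7 macrophage markers were higher in RV, whose part was not tested.

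Mfap4 at 6E13 was at 14.8, 23.3 and 26.1 CPM in LV, all above the highest WT library, a change of 2.07 (SE 0.34, adjusted p = 0.0350, edgeR). Ltbp2 changed by 3.02 in LV (SE 0.49, adjusted p = 0.0339, edgeR). Both LV calls were lost without 6E13 animal 250 or 631 or without WT animal 248, 626, 637 or 647 (adjusted p 0.106 to 0.178), Mfap4 also without WT 636, and both remained without 6E13 animal 645. In RV Mfap4 changed by 2.68 (SE 0.32, adjusted p = 0.00421, edgeR), and only this call remained without WT animal 637 or 647. Mfap5 in RV was also lost without WT 636 (adjusted p = 0.0528), and Fbn1 was gained without 6E13 animal 645 (adjusted p = 0.0223). In LV the Mfap5, Eln and Ltbp2 libraries at 6E13 were all above those of WT, while Ltbp3, Ltbp4, Fbn1, Fbln1 and Fbln2 overlapped with WT. The Ltbp1 libraries were all below those of WT (-0.27, SE 0.15, adjusted p = 0.896, edgeR). The share of all genes separated from WT in this way was not computed.

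Between the doses, 0 of the 10 genes were called in either ventricle (0.0122% of all genes in LV and 0.0404% in RV, in either direction). By edgeR, 4 of the 10 had an unadjusted p under 0.05 in LV (Ltbp2, Ltbp3, Mfap5 and Eln) and 4 in RV (Ltbp2, Mfap4, Mfap5 and Fbln1), all lower at 6E13. Such a p was found, in either direction, for 913 of 16410 genes tested in LV and 1497 of 17307 in RV. DESeq2 called 0 in LV and 2 in RV, Fbln1 (-1.35, adjusted p = 6.44e-04) and Mfap4 (-1.31, adjusted p = 0.00706). In RV, Fbln1 was at 315 and 330 CPM at 3E13 and at 89.2 to 150 CPM at 6E13, without overlap, and the summed fibroblast markers were 2737 to 2915 CPM at 3E13 and 1170 to 1643 CPM at 6E13. The part of those markers in the dose difference was not tested. Transgene levels overlapped between the doses in LV (167 to 364 CPM at 3E13 and 333 to 535 CPM at 6E13) and did not overlap in RV (242 to 277 and 295 to 465.7 CPM).

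**Figure D3:**
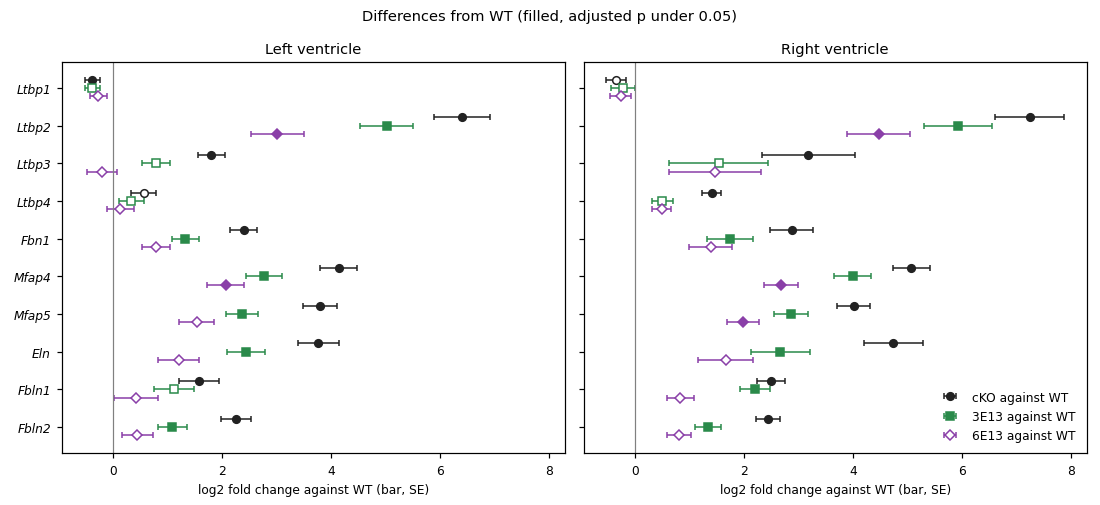
Log2 fold change against WT of each gene in cKO (black circles), 3E13 (green squares) and 6E13 (purple diamonds), in a left panel for LV and a right panel for RV, bars at 1 SE, and filled symbols where the adjusted p was under 0.05. In LV Ltbp2 stands at 6.40 in cKO, 5.02 at 3E13 and 3.02 at 6E13, and Ltbp1 lies below 0 in all 3 groups.

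The 12 mice with both ventricles allowed a paired comparison, fitted with the animal as a block. In WT mice 0 of the 10 genes differed between RV and LV (0.00556% of all genes did). By edgeR 1 (Ltbp2, lower in RV) had an unadjusted p under 0.05, as did 1539 of the 17981 genes tested. In cKO mice Fbln1 was higher in RV by 1.39 (SE 0.27, adjusted p = 0.0199, edgeR), in 4 of 4 animals, where 1.89% of all genes were higher in RV. By edgeR 7 of the 10 had an unadjusted p under 0.05, as did 3454 of the 17981 genes tested. All 10 estimates were above 0, the lowest at 0.13 for Fbln2, with a median of 0.54 against -0.01 over all genes. The share of all genes above 0 was not computed, and the 10 estimates come from the same 4 mice. The RV to LV ratios of Fbln1 were 1.29, 2.01, 3.00 and 6.30 in the 4 cKO mice and 0.969, 1.45 and 1.48 in the WT mice. The call was lost without animal 180 (adjusted p = 0.0539), without animal 264 (0.1003) and without the replicate block (0.123), and Mfap4 was also called without animal 257. Without both animals 180 and 257, Fbln1 was the gene called (2.11, SE 0.24, adjusted p = 0.00494, edgeR). There 5 of the 10 had an unadjusted p under 0.05, as did 2931 of 17671 genes, and the lowest estimate of the 10 was -0.0906. Fibroblast markers, summed, were also higher in cKO RV than in cKO LV, at 2449 to 3832 against 618 to 2338 CPM, and their part in the Fbln1 difference was not tested. For Eln the ratios were 0.805, 1.11, 3.06 and 12.7 in cKO mice, with animal 177 at the top, and the change of 1.20 (SE 0.52, adjusted p = 0.228, edgeR) did not pass.

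The difference between the ventricles in the cKO effect was tested as an interaction, and 0 of the 10 genes passed (0.0111% of all genes). All 10 estimates were above 0, from 0.01 for Ltbp1 to 1.76 for Ltbp3, with a median of 0.88 against -0.02 over all genes. The share of all genes above 0 was not computed, and the 10 estimates come from the same mice. By edgeR, 4 of them had an unadjusted p under 0.05, namely Ltbp2 (1.13), Ltbp4 (0.95), Fbn1 (0.69) and Fbln1 (1.04), with adjusted p of 0.210 or more. Of the 17981 genes tested, 1874 had such an unadjusted p. For the 6E13 effect against cKO, 0 of 10 differed between ventricles (0% of all genes). By edgeR 1 had an unadjusted p under 0.05 (Ltbp2, 0.56), as did 979 of 17981 genes. Both counts of set genes called were also 0 without animals 180 and 257, with an unadjusted p under 0.05 for 6 and 3 of the 10 genes (edgeR). Of the 17671 genes tested there, 1796 and 1442 had such a p. So did 8 and 6 of the 8 fibroblast markers, none of them called, and the part of these markers was not tested.

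**Figure D4:**
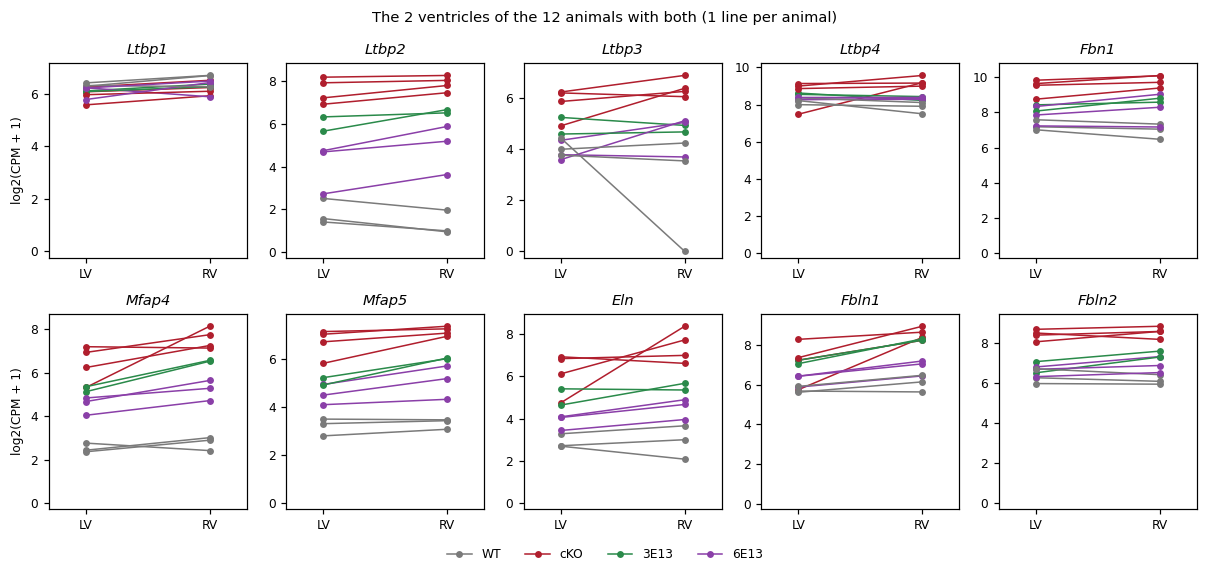
Level of each gene, as log2(CPM + 1) scaled over the libraries of both ventricles, in LV and RV of the 12 mice with both, with 1 line for each animal coloured by group. Fbln1 rises from LV to RV in all 4 cKO mice, and the Ltbp3 line that reaches 0 belongs to WT animal 636.

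The deposited effective lengths, which follow the mix of transcripts used for a gene, were compared because several of these genes have alternative starts. None of the 10 was called in cKO against WT in either ventricle by limma (0.0975% of all genes were called in LV and 1.31% in RV, in either direction). The ratio of effective lengths was 1.05 for Fbln1 in LV (adjusted p = 0.103) and 1.04 in RV (adjusted p = 0.110), and unadjusted p was under 0.05 for Fbn1, Mfap4 and Fbln1 in LV and for Mfap5 and Fbln1 in RV. Over all genes, unadjusted p was under 0.05 for 2435 in LV and 3526 in RV.

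Other genes of the pathway, from 4 lists, were called mostly in the same directions. Of 18 partners in elastic fibres and microfibrils, 12 rose and 2 fell in cKO LV and 15 rose in cKO RV, and against cKO 10 fell in LV and 13 in RV at 6E13. Loxl1, a crosslinking enzyme of elastin, rose by 2.35 in LV (SE 0.18, adjusted p = 9.44e-07, edgeR). Fbn2, a second fibrillin gene, rose by 3.68 (SE 0.35) from 2.31 ± 0.235 to 29.7 ± 13.5 CPM. Vcan, a proteoglycan that binds fibrillin, rose by 2.19 (SE 0.21), and Fn1, the fibronectin on which these fibres assemble, by 3.91 (SE 0.45). The 2 that fell in LV were Efemp1 (-0.97, SE 0.34, adjusted p = 0.0383), a fibulin, and Hmcn1 (-0.68, SE 0.18, adjusted p = 0.00894), a large matrix protein of the fibulin family. The median log2 fold change of the 18 partners from WT to cKO was 1.58 in LV and 2.19 in RV (all genes 0.05 and 0.06).

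Of 16 genes for latent TGF-beta ligands, their carriers and activators, 14 rose and 1 fell in cKO LV and 15 rose and 1 fell in cKO RV. At 6E13 against cKO, 11 fell and 1 rose in each ventricle. Among the ligands, Tgfb3 went from 17.3 ± 1.76 CPM in WT LV to 68.8 ± 30.2 CPM in cKO LV (1.99, SE 0.26) and Tgfb2 from 19.3 ± 1.97 to 48.0 ± 17.3 CPM (1.32, SE 0.18). Thbs1, which encodes the activator thrombospondin-1, rose by 4.81 (SE 0.52, adjusted p = 1.28e-05, edgeR), and Itgb5, a subunit of an activating integrin, by 1.37 (SE 0.17). The gene that moved the other way was Itgb6, also an activating integrin subunit, which fell by 3.16 in LV (SE 0.45, adjusted p = 1.26e-04) and by 4.19 in RV (SE 0.27, adjusted p = 4.89e-06) and rose at 6E13 by 2.73 and 3.73.

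Of 16 receptors, feedback genes and induced genes of TGF-beta, 11 rose in cKO LV and 13 in cKO RV, with none lower, and at 6E13 against cKO 9 and 11 fell. Both receptors rose in LV, Tgfbr1 by 1.38 (SE 0.10) and Tgfbr2 by 1.11 (SE 0.07), as did Skil, a repressor of SMAD signalling, by 1.20 (SE 0.08). Ccn2, a gene induced by TGF-beta, rose by 3.39 (SE 0.26, adjusted p = 9.51e-07, edgeR), from 42.5 ± 8.69 to 446 ± 62.8 CPM. Of 14 elastin-degrading enzymes and their inhibitors, 12 were expressed enough to test, and 10 of them rose in each ventricle with none lower, while 8 fell at 6E13 in each. Elane and Slpi were not tested in LV. Ctss, a macrophage cathepsin, rose by 3.49 in LV (SE 0.42), Ctsk, a collagen- and elastin-cleaving cathepsin, by 2.77 (SE 0.26), Mmp14 by 2.40 (SE 0.25) and Mmp2, a gelatinase, by 2.01 (SE 0.29). These lists stand beside the 19.7% and 16.1% of all genes that rose and fell in cKO LV, the 19.8% that rose in cKO RV, and the 8.16% (LV) and 10.9% (RV) that fell at 6E13 against cKO, and they were chosen with results of these data known. Without the cKO RV libraries of animals 180 and 257, 14, 14, 13 and 10 genes of the 4 lists rose in cKO RV, and 13, 8, 10 and 8 fell at 6E13.

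**Figure D5:**
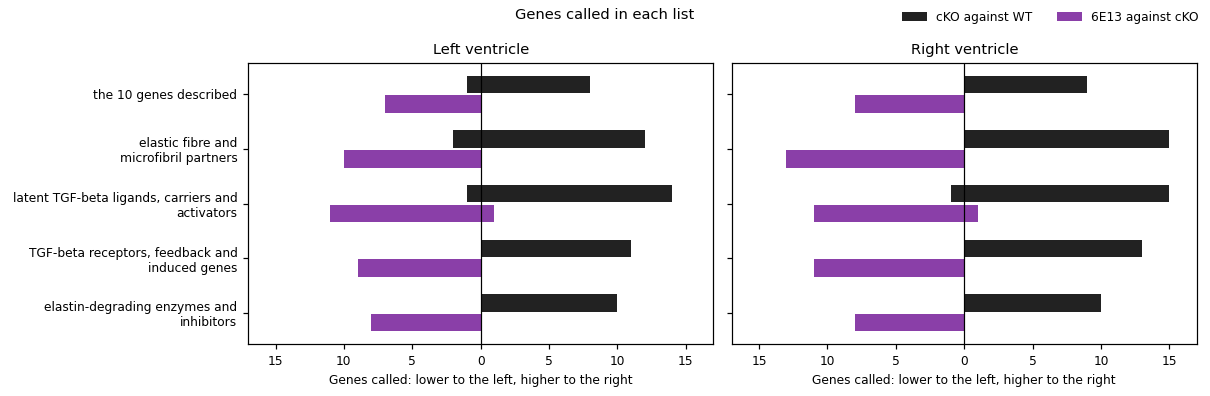
Number of genes called in the 10 described genes and in each of 4 pathway lists, with lower genes to the left of 0 and higher genes to the right, for cKO against WT (black) and 6E13 against cKO (purple) in LV and RV. In every list the black bars lie mainly to the right and the purple bars mainly to the left.

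Over the 16 LV libraries, the genes outside the set whose log2 CPM followed the mean of the 10 most closely were Timp2 (Pearson r = 0.975), Ccdc80 (0.965), Dkk3 (0.964), Nox4 (0.963) and Svep1 (0.962). These values describe libraries that share 4 groups, so differences between groups carry most of each r. Timp2 was at 72.0 ± 7.84 CPM in WT, 178 ± 60.3 in cKO, 111 ± 10.7 at 3E13 and 90.2 ± 1.98 at 6E13. Within the set, Mfap5 and Eln were closest (r = 0.967), followed by Ltbp2 with Mfap5 (0.966), Mfap4 with Eln (0.955), Fbn1 with Ltbp2 (0.955) and Fbln2 with Fbn1 (0.948). Ltbp3 was closest to Eln (0.900), and Ltbp4 and Fbln1 to each other (0.862). Ltbp1 had its highest r with Ltbp4 (0.170) and its lowest with Ltbp2 (-0.674). After the group means were taken out, the r of Ltbp1 with Ltbp4 was 0.686 and that of Ltbp4 with Fbln1 was 0.855.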

How the data were processed

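RNA from ventricular tissue was sequenced by the authors with a stranded total RNA kit that removes ribosomal RNA, although the labels also name a polyA selection. Per the labels, Salmon 1.8.0 and GRCm39 were used, and the authors deposited, for each gene symbol and library, expected counts (estimated, not whole), TPM normalized to transcript length and library, and the effective length, on another scale of bases. The deposited estimates were rounded to integers before the count tests. The row without a gene symbol (0.000515% of counts) was left out. Each library held 19364764 to 39381176 counts, which limits the precision of low genes, and the listed TPM summed to 77.93% to 91.4% of the full TPM total. Groups came from the sample labels, with 1 library per mouse in each ventricle.

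Each ventricle was fitted apart with edgeR 4.0.16 (filterByExpr filter, TMM scaling, quasi-likelihood test, R 4.3.3) over all 4 groups, with Benjamini-Hochberg adjustment over all genes. CPM are TMM-scaled. Comparisons of the ventricles used the animal as a block. The labels give the same number to both ventricles of a mouse, and the deviations from the group means of same-numbered libraries correlated at 0.0917 to 0.582. Effective lengths were compared with limma 3.58.1 on log2 values centred on each library's median, and shares with an exact permutation test (scipy 1.17.1, Python 3.11.15). Alternatives were RLE scaling, no filter, protein-coding genes without mitochondrial genes, length offsets, sex as a covariate, only the compared groups, DESeq2 1.42.0, limma on log2(TPM + 1), and leaving out each library. Sex was inferred for each library, as male where Ddx3y counts exceeded Xist counts. The scripts were tested on simulated data with the same spread for every gene. That test does not cover genes with a wider spread, such as Fbln1 in cKO LV (SD 62.6% of the mean CPM). In 38 pairs of libraries of the same group no copies were found (lowest chi-squared per gene 16.7).

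All 10 genes were tested and counted in every comparison, and named with up to 4 genes per pathway list by adjusted p in cKO LV, the 5 genes most like the set (at least 5 CPM, pseudocount 1), and Pkp2 as a check. Genes that moved against their list were named after their values were seen. The genes, lists and RV against LV in cKO comparison were chosen with earlier results of these data known. Gene positions came from a GRCm39 annotation, in which 33105 symbols were found, and promoters from RefSeq. Each mouse is 1 replicate. The bound given for a count of 0 (3 counts) covers counting error only.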

Additional observations from a re-analysis of the deposited data

Results flagged for a closer look

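Of 40 groups of 4 or 5 LV or RV libraries examined over the 10 genes, 1 held a library far from the others, and chance alone gives about 1 such group in 20. Ltbp2 in the WT LV library of animal 636 was at 4.378 CPM, whereas the other 4 WT LV libraries lay between 1.32 and 1.85 CPM. The same animal also had the highest Ltbp2 of the WT RV libraries, at 2.95 CPM. Without it, the LV fold change of Ltbp2 in cKO was larger, at the top of the range of 6.16 to 6.88 obtained by leaving out single libraries.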

How the results depend on the processing

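For the counts of genes called and the Ltbp2 shares, 116 of 130 values under other settings were classed as unchanged and 14 were not. A count was unchanged within 1.5 times the reported count, and a share if it kept direction and side of the threshold. The size of a share was not part of that rule. The Ltbp2 share difference, cKO minus WT, was 26.77 points in LV and 23.43 in RV on expected counts. On TPM it was 19.98 and 17.1 points. For single genes 850 kept direction and side of the threshold, 34 lost the call, 31 gained it and 15 turned sign. Some settings were added after seeing the data (renormalized TPM, without the 2 cKO RV libraries with most Myl7, and all settings of RV against LV in cKO). In LV 3E13 against cKO (6 called), fitting only the 2 groups gave 0, and leaving out single libraries gave 1 to 8. In LV 6E13 against cKO (7), fitting only the 2 groups gave 4. In LV 6E13 against WT (2), length offsets gave 0, only the 2 groups 4, limma on TPM 0, renormalized TPM 0 and leaving out single libraries 0 to 2. In RV 3E13 against cKO (4), length offsets gave 2, sex as a covariate 2, only the 2 groups 1, limma on TPM 9 and leaving out single libraries 0 to 4. In RV 6E13 against WT (3), DESeq2 gave 6, limma on TPM 1 and leaving out single libraries 1 to 4. In RV 6E13 against 3E13 (0), DESeq2 gave 2. With the replicate block, RV against LV in cKO gave 1; with no replicate block it gave 0, and leaving out single animals gave 0 to 2. With no replicate block the other paired comparisons gave 0, as with it. Where 1 library was left in a group, its spread was taken from the other groups.

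Sign changes concerned Ltbp1, and Fbln1 once. Outside the deposited TPM scale, the turned value furthest from 0 was -0.12. It was that of Ltbp1 in LV 3E13 against cKO without a single library, where the SE of the main fit was 0.145. Ltbp1 in cKO against WT was 0.13 in LV and 0.43 in RV by limma on TPM. In LV 3E13 against cKO, Ltbp1 was -0.0047 with RLE and with DESeq2, -0.0014 with sex, -0.0057 with only the 2 groups, -0.31 by limma on TPM, -0.0384 on renormalized TPM, and -0.12 to 0.12 without single libraries. In LV 6E13 against cKO, Ltbp1 was -0.32 on TPM, -0.0227 on renormalized TPM and -0.0016 to 0.25 without single libraries. In RV, Ltbp1 was -0.48 and -0.0788 for 3E13 and -0.42 and -0.0113 for 6E13 against cKO on those scales, -0.0288 to 0.25 without single libraries at 6E13, and 0.0109 for 6E13 against WT on TPM. Fbln1 in LV 3E13 against cKO ran from -0.76 to 0.0101 without single libraries.

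Counts over all genes depended on the fit. Fitting only the 2 groups gave 49 in place of 1932 genes (LV 3E13 against cKO), 305 in place of 2759 (LV 6E13 against cKO), 1776 in place of 411 (LV 3E13 against WT), 182 in place of 14 (LV 6E13 against WT), 78 in place of 1488 (RV 3E13 against cKO), 78 in place of 151 (RV 6E13 against WT) and 82 in place of 7 (RV 6E13 against 3E13). DESeq2 gave 912, 102, 39, 2733, 2135, 616 and 236 for LV 3E13 against WT, LV 6E13 against WT, LV 6E13 against 3E13, RV 3E13 against cKO, RV 3E13 against WT (1278), RV 6E13 against WT and RV 6E13 against 3E13. Limma on TPM gave 3602 and renormalized TPM 1166 for LV 3E13 against cKO, 145 and 223 for LV 3E13 against WT, 2 and 1 for LV 6E13 against WT, 496 and 766 for RV 3E13 against WT, 14 and 42 for RV 6E13 against WT, 4 and 2 for RV 6E13 against 3E13, and 1 and 1 for LV 6E13 against 3E13 (2). On TPM alone, 9924 in place of 6468 genes were called in RV cKO against WT, 5670 in RV 3E13 against cKO and 6824 in place of 3825 in RV 6E13 against cKO. The higher share of calls in LV 3E13 against cKO was 46.9%, and 4.0% on TPM, 29.1% renormalized and 34.7% with 2 groups. In RV it was 55.4%, 2.4% and 27.5% at 3E13 and 50.8%, 6.4% and 36.4% at 6E13. In LV 6E13 against cKO it was 36.4% with 2 groups. Against WT at 3E13 it was 78.8% in LV (91.7% on TPM, 56.8% with 2 groups) and 78.6% in RV (89.9% on TPM). Length offsets gave 935 for RV 3E13 against cKO and 3 for LV 6E13 against WT, sex 41 for RV 6E13 against WT, and no filter 266 there and 25 for RV 6E13 against 3E13. No replicate block gave 66 in place of 733 for RV against LV in cKO. The causes were not tested. Low counts limit the WT level of Ltbp2. The WT level of Ltbp3 in RV is limited by the library of animal 636 with 0 counts, beside 402 and 267 in animals 637 and 647.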

Other observations

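Among the cKO mice, animal 177 had the lowest LV level of the cKO group for Ltbp1, Ltbp3, Ltbp4, Mfap4, Mfap5, Eln and Fbln1 (Eln 24.1 CPM, Fbln1 48.95 CPM), and in RV it had the highest level for Fbn1 (1123 CPM), Mfap4 (290 CPM) and Eln (340 CPM) and the lowest for Ltbp1 (61.3 CPM), Mfap5 (127 CPM) and Fbln2 (300.3 CPM). Its RV to LV ratio was 12.7 for Eln, 7.21 for Mfap4 and 6.30 for Fbln1. In the 6E13 group, animal 645 had the lowest level of Ltbp2, Fbn1, Mfap4, Mfap5, Eln and Fbln2 in both ventricles. Its Ltbp2 was at 5.36 CPM in LV and 11.8 CPM in RV.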
